A study of Rattus norvegicus with 5 samples.

Results

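L2, a rat hepatocellular carcinoma cell line of high metastatic ability, was set against 3 other carcinoma lines, C5F and C6 of low and N1 of high metastatic ability. The comparison took in 4 of the 5 arrays, and the fifth array, of liver, served as a reference. Each array held 1 RNA sample on a single-colour CodeLink rat whole-genome slide, so every line had 1 array. The labels place the lines in male F344 rats of 31 weeks, with liver tumours after N-nitrosomorpholine and diethylnitrosamine. The liver came from an untreated male SD rat of 50 weeks, so that strain, age and culture all differ between it and the lines. Of 12198 genes named on the array, 5295 were compared, since they had a usable spot in all 4 lines and a signal above background in at least 1 of them. The other 6903 were not.

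Liver cancer cells are epithelial. E-cadherin and other junction proteins hold such cells to each other, and polarity proteins keep an apical surface apart from the rest of the membrane. During epithelial to mesenchymal transition cells lose these proteins and gain others, such as N-cadherin. Secreted and membrane-bound proteases cut the matrix around a cell, and tissue inhibitors of metalloproteinases restrain them. Cells with a regulated secretory pathway store peptides in granules and process them there with dedicated peptidases.

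Levels below are log2 normalised signals of 1 probe per gene. A probe called near background by the scanner software has only an upper bound, so a fold against it is written as "at least", from the higher of its own signal and the lowest signal called above background on that array. A gene was called higher in L2 when it was at least 2-fold above the highest of the other 3 lines, and lower when it was at least 2-fold below the lowest. With 1 array per line there is no replicate check and no test, the number of arrays limits the precision, and a difference describes these 5 samples. In RNA from a whole culture, fewer cells of a type and less RNA per cell cannot be told apart.

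L2 had few liver-specific transcripts, as did C6 and N1. Of 23 hepatocyte markers with usable spots on all 5 arrays, 4 were above background in L2, 3 each in N1 and C6, 11 in C5F and 21 in liver. Those 4 were Afp, Apob, Hnf4a and Asgr2, and Alb, the gene of albumin, was near background in all 4 lines. The summed signal of these markers was 167 in L2, 178 in N1, 180 in C6, 6003 in C5F and 54053 in liver. None of the 14 hepatocyte markers compared was called in L2 in either direction. A lower call needs a signal above background in all 3 other lines. Of the 14, 4 had one in C6 and 4 in N1, so most of them could not be called lower. Defining markers of other liver cells were scarce in L2. Of 10 endothelial markers 0 were above background in L2 (7 in liver, and 0 to 2 in the other lines), of 11 stellate and fibroblast markers 1 (3 in liver), and of 12 macrophage markers 2 (9 in liver). The summed macrophage signal was 86.9 in L2 and 81.7 to 117 in the other lines. The summed stellate signal was 43.3 in L2 and 51.0 to 59.2 in the other lines, and the summed endothelial signal 46.3 and 54.7 to 59.6. In L2, 10 of the 11 stellate and 10 of the 10 endothelial spots were near background, and most were in the other lines. These sums are therefore mostly background, and no difference is read from them. Of 7 cholangiocyte and progenitor markers 3 were above background in L2, as in each other line. Their summed signal was 275 in L2 and 143 to 185 in the other lines. Cd24, 1 of the 3, was 7.75 in L2 and 6.32 to 6.96 in the other lines, without a call. Of the 3, 1, 3 and 4 cholangiocyte, stellate, macrophage and endothelial markers compared, 0 were called in either direction. The stellate marker and most of the endothelial markers could not be called lower, for the reason given for hepatocyte markers. Krt19 and Epcam, also of the cholangiocyte list, lacked a usable spot in all 4 lines. Both were lower in L2 than in the lines with a usable spot, as described below.

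L2 stood apart from the other 3 lines at 116 genes where it was higher (2.19% of those compared) and at 81 where it was lower (1.53%). The same rule found 95 higher (1.79%) and 95 lower (1.79%) genes for C5F, 66 (1.25%) and 12 (0.227%) for C6, and 128 (2.42%) and 16 (0.302%) for N1. L2 thus had 197 genes in both directions together, next to 190 for C5F, 144 for N1 and 78 for C6. With each array scaled to its 75th percentile, which moved the median of all genes by -0.11 on the log2 scale, L2 had 103 higher and 117 lower genes, so the balance between the directions was not stable. Leaving out 1 of the other lines can only add calls, since L2 is then set against fewer lines over the same genes. The counts were 178 higher and 145 lower without N1, 167 and 146 without C6, and 127 and 117 without C5F. The probe correlation of L2 was 0.787 with C5F, 0.860 with C6 and 0.851 with N1, over 10442 probes on normalised arrays.

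Among the 116 higher genes, the nearest other line was N1 for 82, C6 for 28 and C5F for 6. A near-background spot counts at no less than the lowest signal above background on its array. On the log2 scale that signal was 3.70 in N1, 3.56 in C6 and 2.98 in C5F. N1 is thus often named nearest through this bound, and the 82 are no measure of likeness to N1. At 50 of them all 3 other lines were near background, and these genes entered the comparison through L2 alone, so that they could only be higher there or not called. Among the 81 lower genes the nearest line was N1 for 33, C5F for 26 and C6 for 22, and L2 itself was near background at 33. Liver was above background at 46.3% of the higher genes with a usable liver spot, against 68.2% of all compared genes above background in L2. It was above background at 75.4% of the lower genes, close to the 75.6% of all compared genes above background in the other 3 lines. The genes at the threshold were Eid1, 2.00-fold higher and inside it, and Cnn3, 1.98-fold and outside. On the lower side they were Pcsk4 at 2.00-fold and Acat2 at 1.99-fold.

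The epithelial junction list had 3 lower genes and 1 higher gene in L2 among 27 compared, or 11.1% and 3.70%, against 1.53% and 2.19% of all genes. Of its 70 members, 28 were on the array without the spots needed and 15 were not analysed here. The median difference of the list, L2 minus the median of the other lines, was -0.14 on the log2 scale, and 0 over all genes. All gene lists here were drawn up with earlier results of these data known. Cdh1, Crb3, Lgals4, Timp1, Mmp14 and Cpe were picked for description beforehand and are counted in their lists. The shares of these lists therefore describe the data and are no separate support. Cdh1, the gene of E-cadherin, had levels of 2.03 in L2, 6.72 in N1, 8.17 in C6, 6.89 in C5F and 8.76 in liver. L2 was the only array with Cdh1 near background, at least 9.42-fold below the nearest line and at least 38.9-fold below liver. A second Cdh1 probe read 4.09 in C5F, was above background in N1 too and near background in L2, without usable spots in liver and C6. Crb3, an apical polarity protein of the Crumbs family, had 1.99 in L2, against 5.18 in C5F, 6.44 in C6 and 7.26 in N1. The L2 spot alone was near background, at least 3.25-fold below C5F, and the liver spot was not usable. Cdh17, the cadherin of liver and intestine, was 8.76 in L2, 9.77 in N1, 10.90 in C6, 10.07 in C5F and 7.87 in liver. L2 was above background for Cdh17, 2.01-fold below N1 and above liver. With an offset of 50 added to the signals, which compresses differences between dim spots, Cdh1 stayed lower by the rule and Crb3, Cdh17, Elf3 and Tmprss2 did not.

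Of the 27 junction genes compared, 18 were above background in L2, next to 24 in C5F, 23 in C6 and 19 in N1. L2 lay below all other lines at 8 of them and above all at 4, at any size of difference. The genes in this paragraph were picked after their values were seen. Tjp1, a tight junction scaffold, was 8.13 in L2, against 8.32 in C5F, 7.33 in C6 and 8.15 in N1. F11r, a junctional adhesion molecule, was 8.51, 8.16 and 8.07 in C5F, C6 and N1 and 8.45 in L2. Cldn2, a pore-forming claudin, was 7.59, 7.98 and 7.90 in these lines and 7.48 in L2. In each of these 3 genes L2 lay within the other lines or less than 2-fold from them. Ctnna1, which couples cadherins to actin, was highest in L2 at 10.15, next to 8.62 to 9.43 in the other lines, and was not called. Ildr1, a protein of tricellular junctions, was near background on the other 4 arrays and 5.13 in L2, at least 2.68-fold above. It entered the comparison through L2 alone. Patj, a partner in the Crumbs polarity complex, was 4.49, 4.78 and 3.97 in C5F, C6 and N1 and near background in L2, where its bound does not reach 2-fold.

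**Figure D1:**
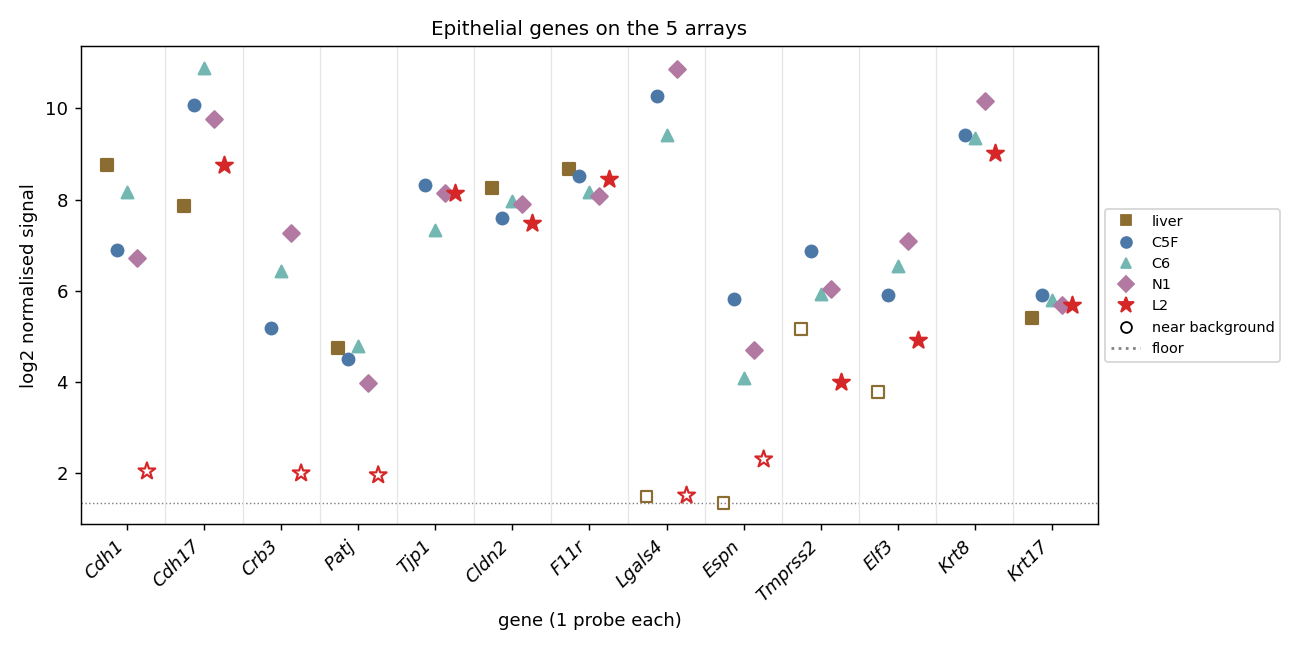
Levels (log2 normalised signal, vertical axis) of 13 epithelial genes (horizontal axis) on each array, 1 symbol per array, with open symbols near background and the dotted line at the floor of 1.34. The L2 stars for Cdh1, Crb3 and Lgals4 are open and lie below the other lines, while the Krt8 and Tjp1 stars lie among or close to them.

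Other epithelial groups gave 1 lower gene each, or none. Of 9 epithelial transcription and splicing regulators compared, Elf3 was lower. Elf3, an Ets factor of epithelia, was near background in liver at 3.77, 4.91 in L2, against 5.91 in C5F, 6.53 in C6 and 7.09 in N1. It was the dimmest of the lines in L2, 2.01-fold below C5F, and lost the 2-fold difference with the deposited normalised values. Of 11 brush border and apical genes Lgals4 was lower, and their median difference was -0.53. Lgals4 encodes galectin-4, a sugar-binding protein of intestinal epithelium, and was 10.27 in C5F, 9.41 in C6, 10.88 in N1, 1.50 in L2 and 1.48 in liver. It was bright in all 3 other lines and near background in L2 and in liver, and L2 was at least 60.9-fold below C6. Espn, an actin bundler of microvilli, was 5.81, 4.08 and 4.70 in C5F, C6 and N1 and near background in L2 and liver, and its bound does not reach 2-fold. Of 4 membrane-anchored serine proteases and inhibitors compared, Tmprss2 was lower, with 4.001 in L2, against 6.87 in C5F, 5.92 in C6 and 6.02 in N1. L2 was 3.78-fold below C6 for this protease of epithelial surfaces.

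Keratins were not called in L2 among the 5 compared. Krt8, a keratin of simple epithelia, was 9.03 in L2, against 9.42 in C5F, 9.36 in C6 and 10.16 in N1, so L2 was the dimmest by less than 2-fold. Krt17 was 5.69 in L2 and 5.91, 5.80 and 5.69 in C5F, C6 and N1. Some epithelial genes had a usable spot in L2 and only 2 other lines, where the same rule calls 2.91% of 1789 further genes higher and 5.03% lower. Krt19, a keratin of bile ducts, was 11.11 in C5F, 10.43 in C6 and 9.14 in L2, or 2.45-fold lower. Vil1, the microvillus protein villin, was 7.97 in C5F, 5.45 in C6 and near background in L2, at least 3.90-fold lower. Prom2, a membrane protein of cell protrusions, was 6.76 in C6, 7.15 in N1 and 5.46 in L2. Gjb2, a connexin, was 6.11 in C5F, 4.49 in N1 and near background in L2. These 4 were the lower genes among those compared in this way, 1 of 8 junction, 2 of 7 brush border and apical and 1 of 3 keratin genes. Of 4 regulators and 2 serine proteases or inhibitors 0 were called, and 0 of the 5 lists' genes were higher. Epcam, an epithelial adhesion molecule, could be compared with C5F alone, where it was 6.21, next to a near-background spot in L2, at least 6.61-fold lower. Krt18 was not analysed here.

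RefSeq promoters (build GRCr8, from 250 bases before to 50 after the gene start) were searched for CAGGTG on both strands, the E-box form bound by the Snail and Zeb repressors of epithelial genes. The table held a promoter for 1 of the 3 lower junction genes, Crb3, and for 4 of the 6 lower genes of all epithelial lists, a set widened after the data were seen. Of these 4, 3 held the motif, against 18.8% of 33469 promoters and 7 of the 16 promoters of compared junction genes. They are printed below 5′ to 3′ along the gene, with matches in capitals, to show what the lower epithelial genes carry upstream. Crb3 lies at chr9:1987504-1987803 (+ strand), Elf3 at chr13:49247037-49247336 (- strand), Tmprss2 at chr11:50443065-50443364 (- strand) and Lgals4 at chr1:93252035-93252334 (+ strand).
Crb3: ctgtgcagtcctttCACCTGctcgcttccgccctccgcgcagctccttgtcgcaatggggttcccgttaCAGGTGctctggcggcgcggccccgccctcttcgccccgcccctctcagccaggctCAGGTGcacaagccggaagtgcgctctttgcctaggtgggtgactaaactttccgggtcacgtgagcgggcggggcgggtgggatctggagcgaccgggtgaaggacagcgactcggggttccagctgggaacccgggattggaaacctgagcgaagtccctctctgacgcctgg
Elf3: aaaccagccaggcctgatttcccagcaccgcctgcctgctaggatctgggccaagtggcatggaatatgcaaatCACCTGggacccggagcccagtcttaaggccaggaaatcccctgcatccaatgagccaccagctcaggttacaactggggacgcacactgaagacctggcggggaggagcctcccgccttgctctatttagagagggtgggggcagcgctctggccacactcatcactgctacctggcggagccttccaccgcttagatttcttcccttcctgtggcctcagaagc
Tmprss2: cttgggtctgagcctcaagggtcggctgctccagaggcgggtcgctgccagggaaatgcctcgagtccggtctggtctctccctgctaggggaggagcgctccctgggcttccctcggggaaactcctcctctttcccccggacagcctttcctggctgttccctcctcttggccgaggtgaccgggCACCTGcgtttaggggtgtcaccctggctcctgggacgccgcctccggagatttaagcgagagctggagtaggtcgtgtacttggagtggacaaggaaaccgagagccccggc
Lgals4: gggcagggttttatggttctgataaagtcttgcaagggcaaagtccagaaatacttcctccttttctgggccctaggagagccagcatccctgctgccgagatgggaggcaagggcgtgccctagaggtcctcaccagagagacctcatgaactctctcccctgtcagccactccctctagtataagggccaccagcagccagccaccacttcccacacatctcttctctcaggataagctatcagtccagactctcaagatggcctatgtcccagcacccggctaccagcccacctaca
The Crb3 matches began 236, 181 and 125 bases before the gene start, the Elf3 match 176 and the Tmprss2 match 63 bases before it. The Lgals4 window held no match, which says only that these letters are not in it. A match is a description of the sequence. TGANTCA, the site of AP-1 factors, was searched for on both strands in the promoters of the higher protease, inhibitor and granule genes. The table held 4 of these 7 promoters (Pcsk5, Reck, Cst3 and Cpe), and 0 held the motif, against 7.33% of all promoters and 5 of the 62 of compared genes of these lists. The Snail gene Snai1 was 5.30 in L2, against 4.76 in C5F, 5.79 in C6 and 5.94 in N1, within the range of the other lines. Zeb1 was 7.71 in L2 and 6.98, 7.13 and 7.24 in these lines, highest in L2 by less than 2-fold.

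The mesenchymal transition list had 7 higher genes in L2 among 28 compared, or 25.0%, next to 2.19% of all genes, and 0 lower. Its median difference was 0.05. Loxl3, a lysyl oxidase that crosslinks collagen, was 4.79 in liver, 5.23 in N1 and 7.17 in L2, and near background in C5F and C6. L2 was the brightest array, 3.84-fold above N1, while a second Loxl3 probe was near background on all arrays. Cdh2, the gene of N-cadherin, was 4.95 in L2 and near background on the other 4 arrays, at least 2.38-fold higher. A second Cdh2 probe was 8.83 in liver, 5.07 in C6, 5.01 in N1 and 9.06 in L2, and unusable in C5F. Both probes placed L2 above the other lines with a usable spot, while the second also found Cdh2 in liver. Cdh3, the gene of P-cadherin, was 4.67 in C6 and 5.86 in L2 and near background elsewhere, 2.28-fold higher.

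Sparc, a matrix-binding glycoprotein, was 9.26 in liver, 3.64 in C5F, near background in C6, 6.55 in N1 and 7.72 in L2. L2 was 2.25-fold above N1 and dimmer than liver, a second Sparc probe was near background in L2, and scaling to the 75th percentile ended the call. Gja1, the gap junction protein connexin 43, was 5.06 in liver, 4.69 in N1 and 5.79 in L2, 2.15-fold higher than N1. Tcf4, an E-box binding factor, and the growth factor Tgfb1 were above background in L2 alone, at 5.06 and 4.79, at least 2.56-fold and at least 2.13-fold higher. A second Tgfb1 probe was near background on all arrays. The best known mesenchymal filament did not follow. Vim, the gene of vimentin, was 9.11 in L2, against 6.24 in C5F, 9.01 in C6 and 10.13 in N1. S100a4, a calcium-binding protein of motile cells, was 11.46 in L2 and 9.76, 11.79 and 13.13 in C5F, C6 and N1. Fn1, the gene of fibronectin, was 6.24 in L2 and 6.66, 6.85 and 9.51 in them. N1 was the brightest line for all 3 of these genes, and L2 was not called. The 7 calls are of few genes, and 3 of them, Cdh2, Tcf4 and Tgfb1, entered through L2 alone. With the offset of 50, 1 of the list was called higher, Loxl3.

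Proteases gave 2 higher genes among 34 compared (5.88%) and 0 lower, next to 2.19% higher and 1.53% lower over all genes. Mmp14, a metalloproteinase anchored in the cell membrane, was 4.44 in liver, near background in C5F, C6 and N1, and 7.05 in L2. L2 was at least 10.2-fold above the other lines and 6.12-fold above liver, and Mmp14 entered the comparison through L2 alone. Pcsk5, a convertase that cleaves proproteins, was 5.42 in liver, 3.39 in C5F, 6.02 in C6, near background in N1 and 7.76 in L2, 3.34-fold above C6. A second Pcsk5 probe was near background on every array with a usable spot. Most proteases of the list did not set L2 apart. Plaur, the urokinase receptor, was 6.74, 7.76 and 7.45 in C5F, C6 and N1 and 7.95 in L2. Htra1, a secreted serine protease, was 4.24, 10.66 and 8.76 in these lines and 10.95 in L2. Mmp9, a gelatinase, was above background in L2 alone at 3.91, and its bound does not reach 2-fold.

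Protease inhibitors went both ways, with 2 higher (11.8%) and 1 lower (5.88%) of 17 compared, next to 2.19% and 1.53% of all genes. Timp1, the secreted inhibitor of metalloproteinases, was 2.69 in L2, against 7.69 in C5F, 7.09 in C6 and 8.21 in N1. L2 was the only line near background, at least 12.2-fold below C6, and the liver spot was not usable. Mmp14 was bright in L2 and near background in the other lines. A relation between Mmp14 and Timp1 was not tested. Cst3, the cysteine protease inhibitor cystatin C, was 5.95 in L2, 4.82 in N1, 3.87 in C6, near background in C5F and 6.37 in liver. L2 was 2.19-fold above N1 and below liver. Reck, a membrane-anchored inhibitor of metalloproteinases, was above background among the lines in L2 alone at 4.74, at least 2.05-fold higher. By this probe Reck entered the comparison through L2 alone, so it could only be higher or not called. Another Reck probe was above background in liver, C5F, C6 and N1 and unusable in L2, so the probes do not give 1 order. Serpine2, a thrombin inhibitor, was 3.82, 4.18 and 4.03 in C5F, C6 and N1 and 4.79 in L2, without a call. With the offset of 50, Mmp14, Pcsk5 and Timp1 kept their calls and Cst3 and Reck lost them.

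**Figure D2:**
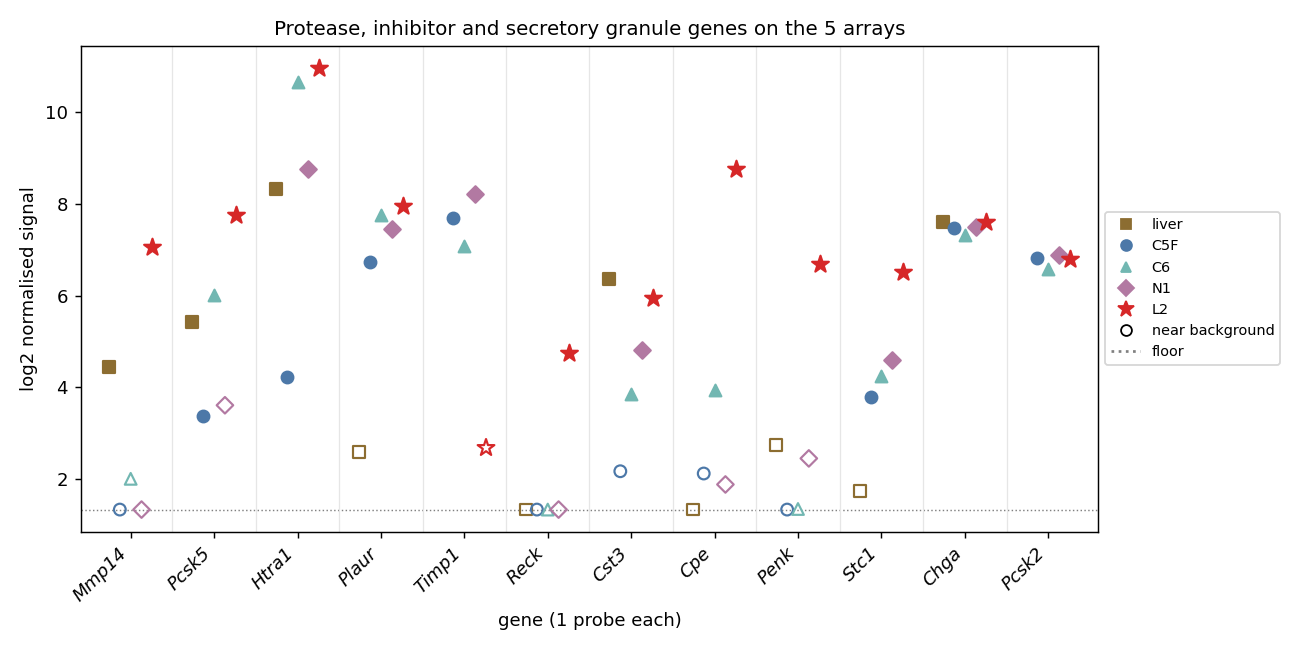
Levels (log2 normalised signal, vertical axis) of protease, inhibitor and secretory granule genes (horizontal axis) on each array, with open symbols near background and the dotted line at the floor of 1.34. The L2 star is far above the other lines for Mmp14, Cpe and Penk, far below them for Timp1, and among or close to them for Plaur, Chga and Pcsk2.

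The secretory granule list had 3 higher genes (10.3%) and 1 lower gene (3.45%) among 29 compared, next to 2.19% and 1.53% of all genes. Cpe, carboxypeptidase E, trims peptide hormones inside granules. It was near background in liver, C5F and N1, 3.95 in C6 and 8.76 in L2. L2 was 28.0-fold above C6 and at least 29.6-fold above liver. Penk, the enkephalin precursor, was near background on the other 4 arrays and 6.68 in L2, at least 7.88-fold higher. Penk entered the comparison through L2 alone, so it could only be higher or not called. Stc1, the secreted hormone stanniocalcin, was near background in liver, 6.52 in L2, against 3.79 in C5F, 4.24 in C6 and 4.60 in N1, 3.79-fold above N1. A second Stc1 probe was near background on every array with a usable spot. Pcsk4, a proprotein convertase, was 7.04, 6.76 and 6.88 in C5F, C6 and N1 and 5.76 in L2, 2.00-fold lower, and lost that difference under 4 other processing choices. Stc1 lost its call with the offset of 50, while Cpe and Penk kept theirs.

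Other members of the granule list, picked after their values were seen, were not called in L2. Chga, the gene of the granule protein chromogranin A, was 7.60 in L2, 7.48 in N1, 7.31 in C6, 7.46 in C5F and 7.59 in liver. Pcsk2, the granule convertase, was 6.79 in L2 and 6.83, 6.58 and 6.87 in C5F, C6 and N1. All arrays with a usable spot lay close together for both genes. Ptprn, a granule membrane protein, was 8.80 in N1 and 8.82 in L2, and 5.21 and 5.82 in C5F and C6, so L2 and N1 were alike and apart from the low-metastatic lines. Of the 9 neuroendocrine and neural markers usable on all arrays, 3 were above background in L2, as in each other line, and their summed signal was 1370 in L2 and 258 to 508 in the other lines. Of 3 compared, 1 was called, Uchl1, a ubiquitin hydrolase of neurons, with 10.13 in L2, against 6.29 in C5F, 8.27 in C6 and 4.88 in N1, 3.62-fold above C6. Uchl1 made up most of the summed L2 signal, so that sum describes this gene more than the group. A second Uchl1 probe was near background on all arrays. The part of these markers in the granule result was not tested. Of 35 genes of the endoplasmic reticulum and Golgi secretory machinery 0 were called, and their median difference was -0.33. With 2 other lines usable, Vgf, a granule peptide precursor, was 5.43 in C6, 4.74 in N1 and 6.95 in L2, and Stx1a, a syntaxin of regulated exocytosis, was 5.76 in C5F, 5.67 in N1 and 7.26 in L2, both higher by the rule. They were 2 of 7 granule genes compared in this way, where 2.91% of 1789 genes were higher, and the other 5 were not called.

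Secreted growth factors and cytokines had 3 higher and 2 lower genes of 52 compared, or 5.77% and 3.85%, next to 2.19% and 1.53% of all genes. Igfbp2, which binds insulin-like growth factors, was 3.76 in C5F, near background in C6 and N1, and 7.52 in L2, 13.5-fold above C5F. Sfrp2, a secreted Wnt antagonist, and Sema3f, a semaphorin, were at least 8.61-fold and at least 4.27-fold higher. Both entered the comparison through L2 alone, so they could only be higher or not called. Csf1, the macrophage growth factor, and Clu, the chaperone clusterin, were 2.12-fold and 2.47-fold lower. Of 24 matrix genes, Col5a2, a fibrillar collagen chain, and Gpc1, a cell surface proteoglycan, were higher, by 7.65-fold and 7.18-fold (8.33%), and 0 were lower. A second Col5a2 probe was near background on all arrays. Of 8 integrins 0 were higher and Itgae was lower, at least 2.62-fold (12.5%, a single gene). The offset of 50 ended the calls of Sema3f, Csf1, Clu and Itgae. Of 16 proliferation genes 0 were called.

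**Figure D3:**
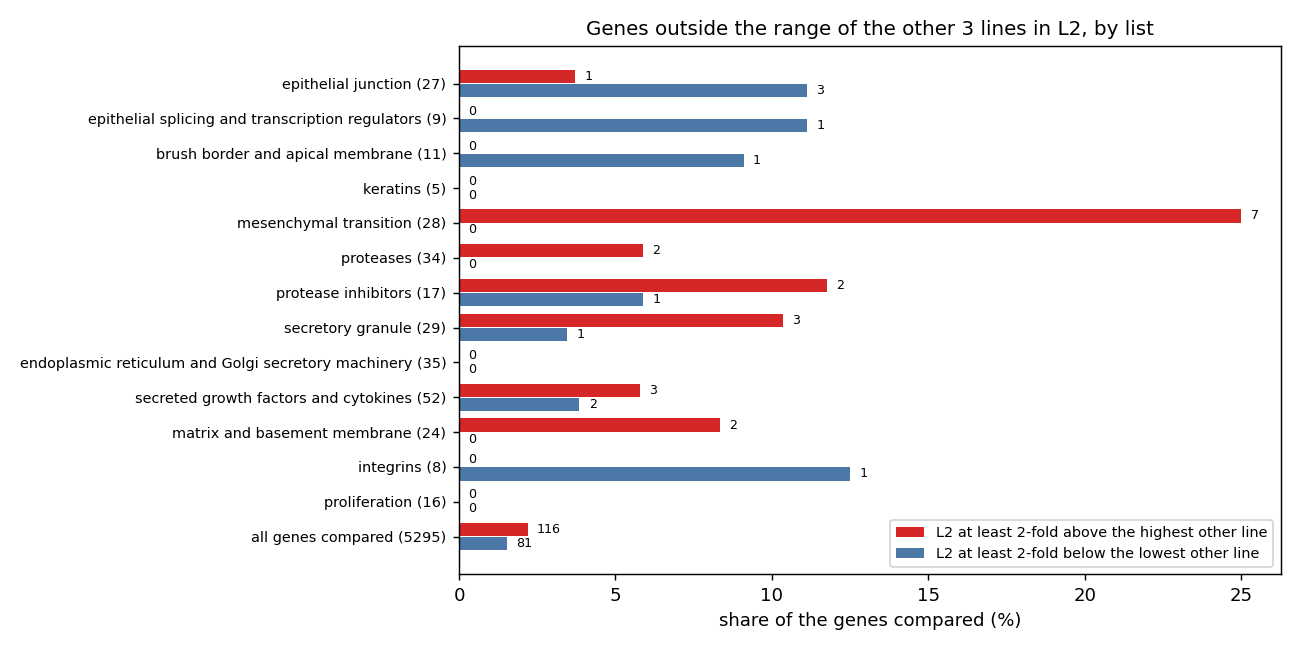
For each gene list (vertical axis) the share of compared members called higher or lower in L2 (percent, horizontal axis), beside the share over all genes, with the count of compared genes by each list. The mesenchymal transition list has the most higher genes, 7 of 28, and the junction list 3 lower of 27.

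Over all genes the widest gaps above the other lines were mostly in genes near background in those lines. Nkd1, a Wnt pathway antagonist that binds Dishevelled, was 5.52 in liver, near background in the other lines and 8.90 in L2, at least 36.7-fold higher. Il10, the anti-inflammatory cytokine, was 8.83 in L2 and near background on the other 4 arrays, at least 34.9-fold higher. Stra6, the receptor for retinol-binding protein, was 8.56 in L2 and near background elsewhere, at least 29.0-fold higher. Below them came Cpe, then Snrpn and Atp10a, at least 20.8-fold and at least 15.8-fold higher by these probes, and Kiaa0040, a gene of unknown role, at least 13.7-fold. Igfbp2, the transcription factor Etv1 (at least 13.4-fold), Epdr1 (at least 11.2-fold), the platelet receptor Pear1 (10.6-fold) and Mmp14 completed the 12. A second Nkd1 probe read 5.27 in C5F, 6.09 in N1 and 8.26 in L2, in the same order but with a smaller gap. A second Snrpn probe was above background in C5F at 6.43 and 7.98 in L2, unusable on the other arrays, a gap of 1.55 on the log2 scale. Further probes were counted when usable in all 4 lines and above background in at least 1. Those near background in all 4 lines, among them probes of Loxl3, Col5a2 and Uchl1, read no difference and were left out. Of 20 probes counted, for 17 of the 116 higher genes, 14 placed L2 above the other lines, 9 of them by 2-fold. Another 5 placed it among them and 1 below. The 14 include probes of Etv1, Kiaa0040, Pear1, Plxnd1, Procr, Smarca2, Tcf7, Nfat5 and Tead1 that, among the lines, were above background in L2 alone. Such a probe could place L2 above or read no difference, but never below, so its agreement is no separate check.

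**Figure D4:**
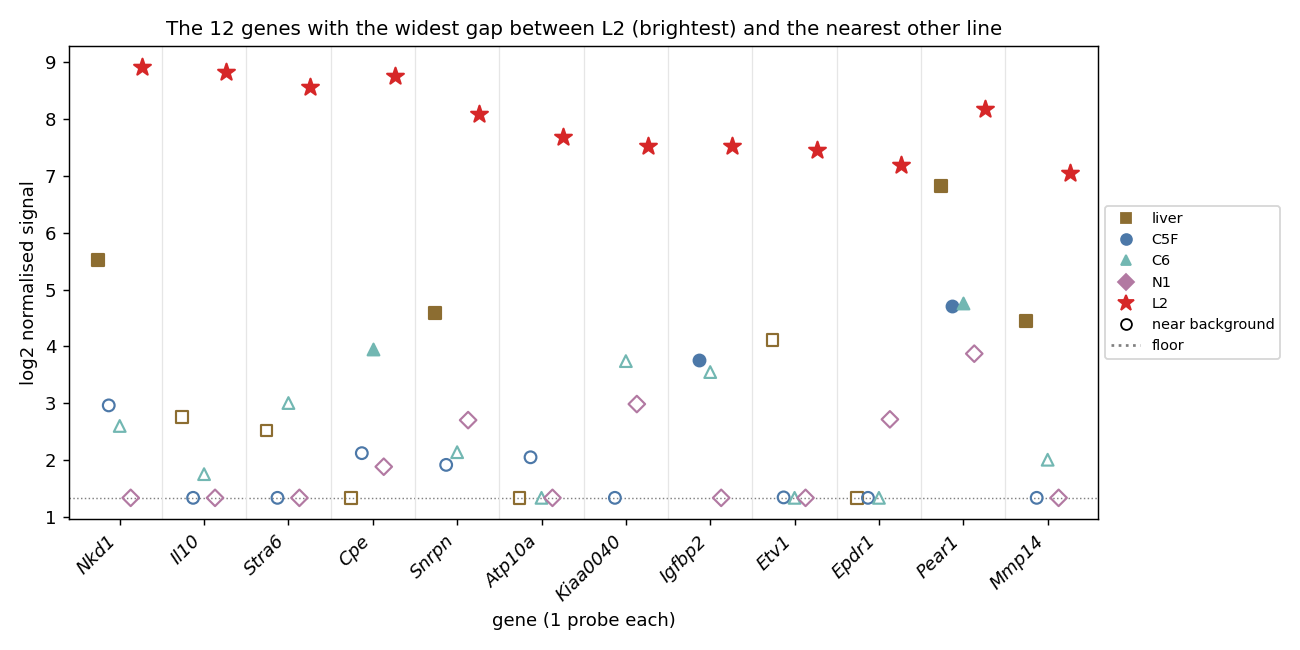
Levels (log2 normalised signal, vertical axis) of the 12 genes furthest above the other lines in L2 (horizontal axis), 1 symbol per array, with open symbols near background. The L2 stars lie between 7 and 9, and nearly all symbols of the other lines are open.

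The widest gaps below the other lines were mostly in genes bright in all 3 of them. Lypd8, a secreted protein of the colon lining, was near background in liver, 5.63 in L2, against 12.58 in C5F, 12.02 in C6 and 11.59 in N1. L2 was 62.3-fold below N1, though still above background. Slc16a3, a lactate exporter, was 5.48 in liver, 9.54, 9.13 and 8.47 in C5F, C6 and N1 and 3.83 in L2, 24.9-fold below N1. After Lgals4 and Timp1 came Sri, the calcium-binding protein sorcin, with 6.87, 7.27 and 7.22 in C5F, C6 and N1 and near background in L2, at least 10.5-fold lower. Cdh1, Pea15, an adaptor of death receptor and ERK signalling (at least 9.30-fold), Tgm1, a transglutaminase of epithelia (at least 8.69-fold), and Acaa1b, a peroxisomal thiolase (6.91-fold), followed. Tmem181 was at least 6.31-fold lower, Bcat1, an aminotransferase of branched-chain amino acids, at least 5.79-fold, and Rbm47, an RNA-binding protein, 5.26-fold. Tmem181 and Bcat1 lost their calls with the offset of 50. Further probes were counted by the same rule as for the higher genes. Of 6 such probes for 5 of the 81 lower genes, 4 placed L2 below the other lines, 1 of them by 2-fold, and 2 among them.

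**Figure D5:**
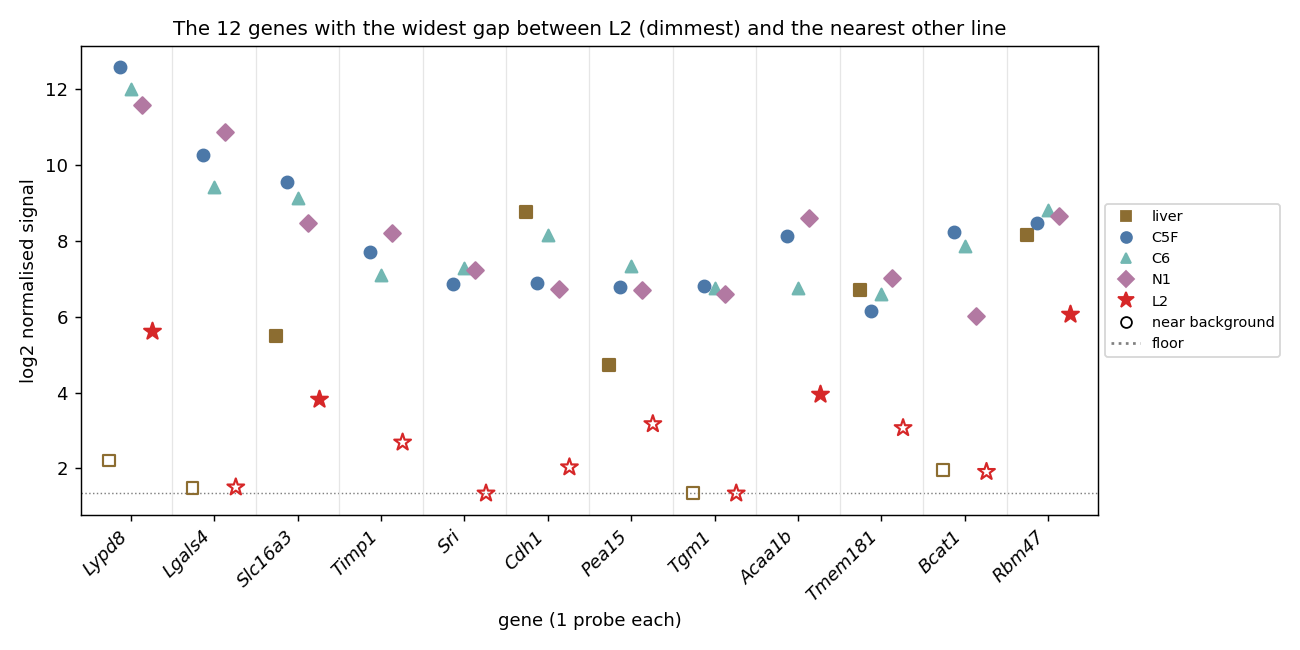
Levels (log2 normalised signal, vertical axis) of the 12 genes furthest below the other lines in L2 (horizontal axis), 1 symbol per array, with open symbols near background. The L2 stars lie below every symbol of the other lines, open for 8 of the genes, while liver varies between near background and the level of the lines.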

How the data were processed

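Total RNA (2 µg, ISOGEN extraction, per the labels' protocols) was labelled for single-colour CodeLink arrays. Per the file headers, the authors quantified scans with CodeLink Expression Analysis 4.1.0.29054, and the deposited raw intensity has background already subtracted. It was used here. The 1280 control spots of 35129 were left out, and irregular, contaminated or masked spots counted as missing. Between 30.6% and 39.2% of probes were above background per array. Signals were quantile normalised over the 5 arrays (limma 3.58.1, R 4.3.3), floored at 2.53, the median signal of near-background spots, and taken to log2. The lowest signals above background, used for bounds, were 11.2 in L2, 13.0 in N1, 11.8 in C6, 7.87 in C5F and 14.6 in liver.

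Platform annotation gave 16753 probes 1 gene, 165 several and 16931 none. Symbols were updated through Entrez numbers in a RefSeq table (GRCr8), where 12177 of 12201 matched, and the comparable probe with the highest mean level in the lines stood for a gene. No test was made. The calling rule was run on simulated data with known differences planted in brighter genes only. That run does not cover calls that rest on dim genes.

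The 20 gene lists and the genes in the comparison were chosen with earlier results of these data known. The text names the 12 genes with the widest gap in each direction, up to 5 per list, and 14 always named (Cdh1, Crb3, Lgals4, Timp1, Mmp14, Cpe, Vim, Cdh2, Epcam, Krt8, Krt18, Krt19, Alb and Afp). Other list members, and genes with 2 other usable lines, were named after their values were seen. Alternatives covered scaling, the deposited normalised intensity, an offset, irregular spots, bounds, filters, probes, the threshold and leaving out a line.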

Additional observations from a re-analysis of the deposited data

How the results depend on the processing

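None of the 50 called named genes reversed its direction under the 9 alternatives run for them, of which leaving out a line could reverse none. But 19 of the 50 were not called under at least 1. All 19 lost the call with an offset of 50, which shrinks differences between dim spots. The offset left 41 higher and 20 lower genes over all, 1 lower junction gene and 2 higher protease or inhibitor genes. Keeping irregular spots, with 8735 genes compared, gave 203 higher, 171 lower and 6 higher granule genes. Floored values in place of bounds gave 125 lower genes. Asking for only 2 other usable lines gave 184 lower and 5 higher granule genes. A 4-fold threshold gave 39 higher and 20 lower genes, 1 lower junction gene and 1 higher protease or inhibitor gene. Leaving out 1 other line can only add calls. It gave 127 to 178 higher and 117 to 146 lower genes, the most higher ones without N1. By list it gave 3 to 4 lower junction, 4 to 6 higher protease or inhibitor and 3 to 4 higher granule genes. The 7 higher mesenchymal genes became 1 with the offset, 4 with genes above background in liver or in 2 lines, and 0 at 4-fold. The counts over all genes and of junction, protease or inhibitor and granule genes lay within 1.5 times of those reported under the other alternatives. No paired analysis was possible because each line has 1 array and the replicate number pairs nothing. Differences between dim spots are limited by signal over background, and 1 array per line leaves the spread within a line unmeasured.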

Other observations

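On rat chromosome 1, 3 neighbouring genes were higher in L2 by the rule. RefSeq places Atp10a, Ube3a, Snurf, Snrpn and Ndn there in this order, a region known for parental imprinting. Snrpn, a splicing protein, was 8.08 in L2, 4.59 in liver and near background in the other lines by 1 probe, while a second probe was 6.43 in C5F and 7.98 in L2. Atp10a, a lipid flippase, was 7.69 in L2 and near background on the other 4 arrays. Ndn, the gene of necdin, was 5.33 in L2 and near background on the other 4, at least 3.08-fold higher. Ube3a, a ubiquitin ligase, was 3.92 in C6 and 4.73 in L2, near background elsewhere, and was not called. Snurf was on the array without the spots needed. The region was chosen after the values were seen.

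Genes of the Wnt pathway were among the higher genes of L2, also picked after their values were seen. Beside Nkd1 and Sfrp2 they include Wls, which carries Wnt proteins to the cell surface and was 7.73-fold above the nearest line by 1 probe (a second was near background on all arrays), and Tcf7, a transcription factor of the pathway, 2.71-fold above. No list of the pathway was drawn up, so these genes carry no count. Slc7a11, the cystine importer, was 2.45-fold above the nearest line and at least 89.1-fold above liver by 1 probe. Another Slc7a11 probe was 4.71 in L2, 4.74 in N1, 4.15 in C5F and near background in C6 and liver. That probe placed L2 within the range of the other lines. A further Slc7a11 probe was near background on all arrays.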
